A study of Mus musculus with 6 samples.

Results

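The transcripts of 10 genes that encode subunits of the NuRD complex were examined in splenic T cells of mice with 3 genotypes of Ikzf3, the gene for the transcription factor Aiolos. The genes were chosen by symbol, as partners of Ikaros proteins, and all 10 were found among the 25239 genes listed in each library and passed the filter on low counts. The study compared mice with a knock-in allele of Ikzf3, made by CRISPR-Cas9 editing, that exchanges 1 amino acid of Aiolos (N159S). RNA-seq libraries were made from TCRb+CD4+CD44-CD127+ T cells, sorted by flow cytometry from the spleens of C57BL/6 mice as cells close to naive T cells, and the sort did not use CD62L. Each genotype had 2 libraries: Ikzf3 +/+ with no variant allele, Ikzf3 +/N159S with 1 variant and 1 normal allele, and Ikzf3 N159S/N159S with 2 variant alleles. The age of these mice is not given in the sources used here, and the variant is carried in every cell of the body. The methods give 2 mice for each mutant genotype, but do not say whether a library came from 1 mouse. The p-values thus measure only the spread between these libraries.

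NuRD (nucleosome remodeling and deacetylase) joins both activities of its name in one assembly, since Chd3 and Chd4 move nucleosomes with energy from ATP and Hdac1 and Hdac2 remove acetyl groups from histone tails. Mta1, Mta2 and Mta3 are scaffolds that hold the deacetylases, Mbd3 or its relative Mbd2 sits at the centre, and Gatad2a and Gatad2b bridge this core to the Chd subunit. In lymphocytes, Ikaros and Aiolos bind NuRD and are known to bring it to genes, and the paralogs of a family take each other's place in separate assemblies. Counts of transcripts give the RNA of each subunit in a genotype, and do not measure the proteins or where they bind.

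The libraries held 11696461 to 17317260 reads on genes, of which the 10 members took 0.315 to 0.369%. Levels are given as CPM, the count of a gene relative to the TMM-scaled total of its library. As a check of the sort, all 10 naive CD4 T cell markers among the counted genes were detected in every library. Their summed level was 7598 to 7972 CPM in Ikzf3 +/+, 6692 to 6891 CPM in heterozygous and 6399 to 6748 CPM in homozygous libraries, so that the Ikzf3 +/+ libraries stood above the other 4. The 14 B cell markers summed to 229 to 357 CPM in Ikzf3 +/+, 611 to 1004 CPM in Ikzf3 +/N159S and 151 to 228 CPM in Ikzf3 N159S/N159S libraries, so that both heterozygous libraries stood apart. Among these markers 13 were highest in both heterozygous libraries, while Fcer2a, which encodes CD23, was lower there (1.06 and 2.25 CPM) than in Ikzf3 +/+ (7.73 and 14.1 CPM), with a log2 fold change of −2.77 (FDR = 0.00592). Their part in the members' values was not tested, and in bulk samples fewer cells of a type and less RNA per cell cannot be told apart. Within each genotype, 1 library had more and the other fewer genes detected (16873 to 18147 against 14803 to 15888 genes with a read), and several members differed along this split, as given below.

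None of the 10 members was called between any genotypes. In Ikzf3 N159S/N159S against Ikzf3 +/+ T cells 0 of 10 members had an FDR under 0.05 (quasi-likelihood test of edgeR, Benjamini-Hochberg adjusted), where 5.26% of the 12117 tested genes did, and 0 members had an unadjusted p under 0.05, where 18.3% of genes did. In Ikzf3 +/N159S against Ikzf3 +/+ the count was also 0 of 10, beside 1.75% of all genes, with 1 member, Gatad2b, at an unadjusted p under 0.05 (16.3% of all genes). Between the mutant genotypes, Ikzf3 N159S/N159S against Ikzf3 +/N159S, the counts were 0 called (1.66% of all genes) and 0 at an unadjusted p under 0.05 (12% of all genes). DESeq2, edgeR's likelihood ratio test and its exact test also called 0 members in these 3 comparisons, and a fit with a term for a split of the libraries called 2 in heterozygous cells, as described further on. These comparisons share their libraries, so that they are not independent of each other.

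The intervals show how large a change could have been missed. Against Ikzf3 +/+, the log2 fold changes of the members in Ikzf3 N159S/N159S T cells ran from −0.15 for Gatad2b to 0.097 for Mta1, and all 10 of the 95% intervals lay within a 1.5-fold change in either direction, between 0.717-fold and 1.25-fold at their outer ends. In Ikzf3 +/N159S T cells 9 of 10 intervals lay within 1.5-fold, and Chd3 was the exception with a lower bound of 0.627-fold. The median log2 fold change of the members was −0.060 in homozygous and −0.066 in heterozygous T cells, beside 0.0004 and 0.011 over all tested genes. Genes expressed as strongly as the members could pass the test at somewhat larger changes. Among the 2773 genes with a level between that of Mta3 and that of Chd3, 130 were called in Ikzf3 N159S/N159S against Ikzf3 +/+, the smallest at an absolute log2 fold change of 0.36.

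**Figure D1:**
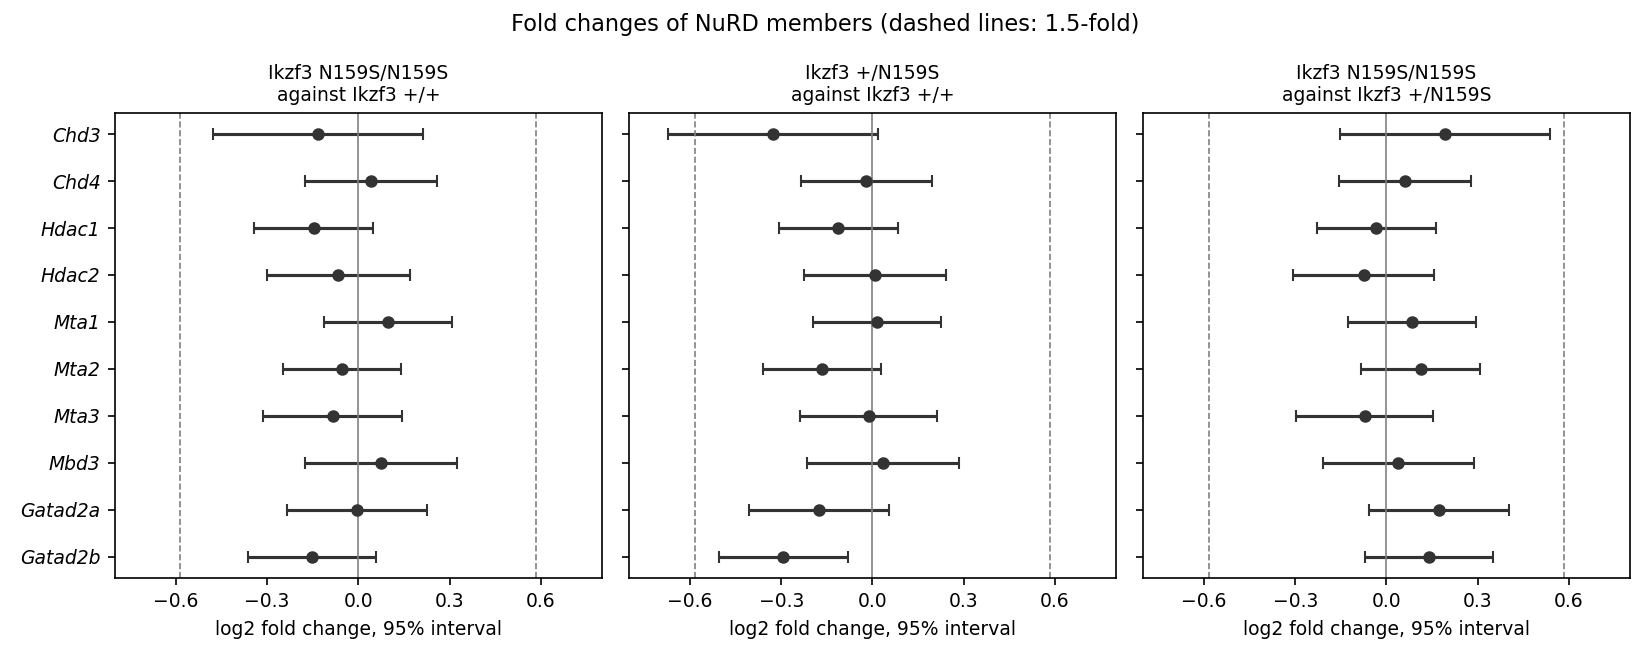
Log2 fold changes of the 10 members (points) with their 95% confidence intervals (bars) from edgeR's quasi-likelihood fit, for 3 comparisons of Ikzf3 genotypes with 2 libraries each. The dashed lines mark 1.5-fold changes; only the interval of Chd3 in Ikzf3 +/N159S against Ikzf3 +/+ passes one of them, and only the interval of Gatad2b in the same panel leaves out 0.

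To ask whether 1 variant allele gave a value midway between none and 2, Ikzf3 +/N159S was set against the midpoint of the other genotypes. Again 0 of 10 members were called (1.03% of all genes), with Gatad2b as the 1 member at an unadjusted p under 0.05 (11.5% of all genes). Both heterozygous libraries lay outside all 4 others in 3 members, beside 17.1% of genes. These were Mta2, Gatad2a and Gatad2b, all lower in heterozygous cells (7.55% of genes), and 0 were higher (9.52% of genes). No member rose or fell stepwise with the number of variant alleles without overlap between genotypes, as 7.75% of genes did.

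**Figure D2:**
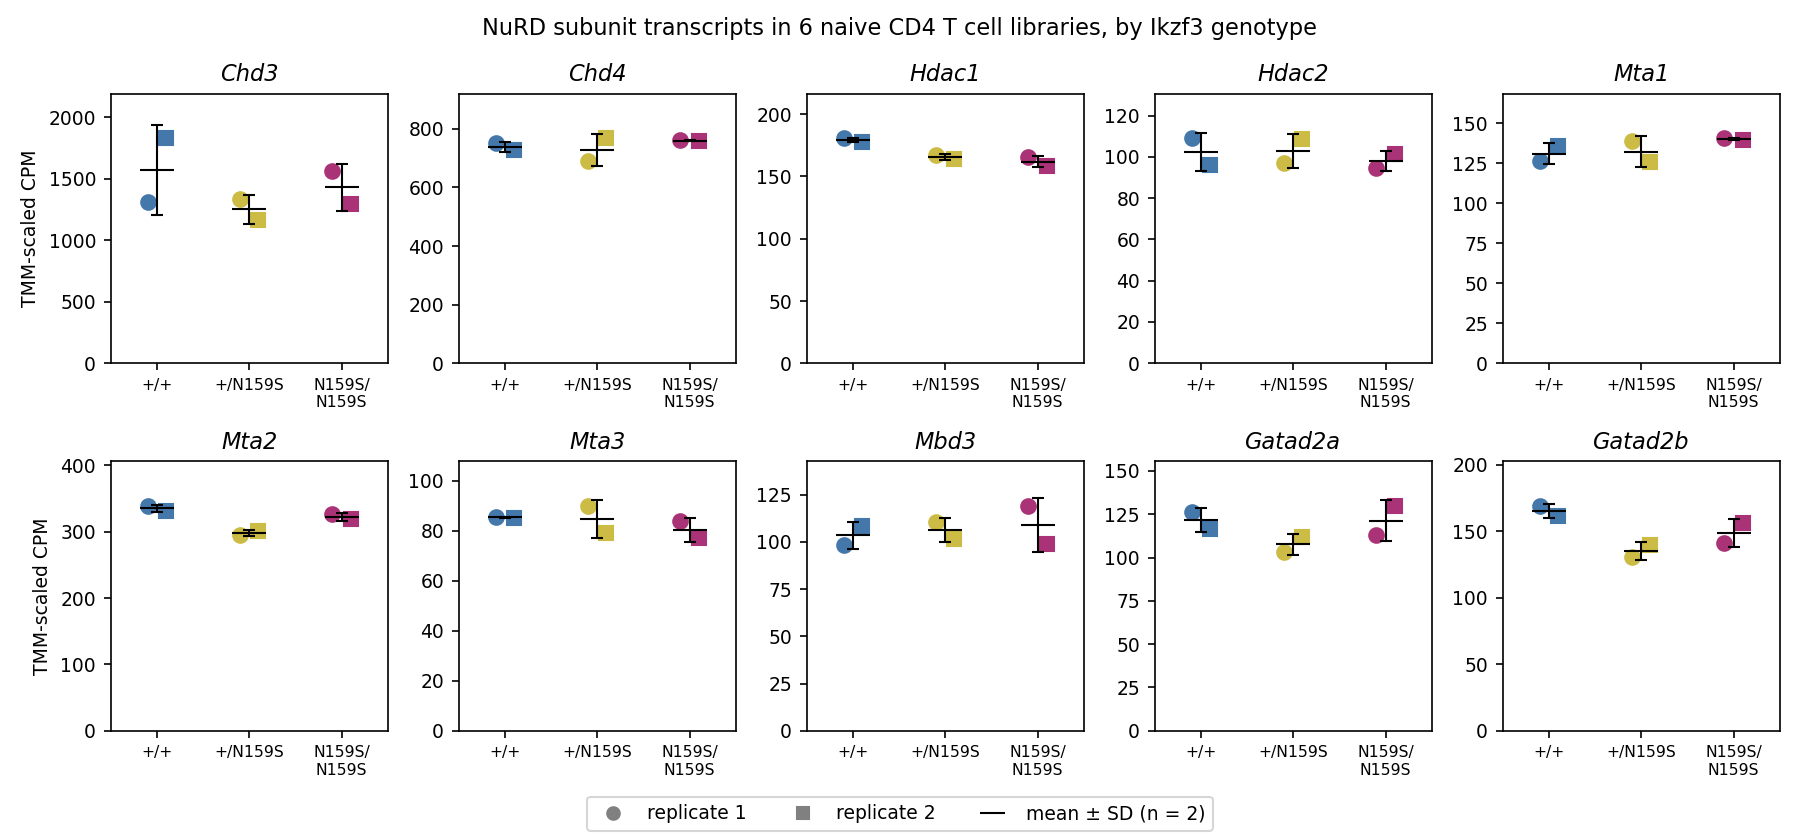
TMM-scaled CPM of each member in the 6 libraries, by Ikzf3 genotype (x axis), with circles for replicate 1, squares for replicate 2 and black marks for the mean ± SD (n = 2); each y axis starts at 0. The libraries of Chd3 spread from 1168 to 1828 CPM, with the top value in 1 Ikzf3 +/+ library, and those of Mta2 and Gatad2b are lowest in both Ikzf3 +/N159S libraries.

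Chd3 and Chd4, the ATPase motors, were the members with the most reads. Chd3 lies on chromosome 11 of mm10, from 69343273 to 69369406 on the minus strand, and Chd4 on chromosome 6, from 125095981 to 125130591 on the plus strand. Chd3 stood at 1310 and 1828 CPM in Ikzf3 +/+, 1333 and 1168 CPM in Ikzf3 +/N159S, and 1564 and 1296 CPM in Ikzf3 N159S/N159S libraries. Replicate 2 of Ikzf3 +/+ was the highest and replicate 2 of Ikzf3 +/N159S the lowest, and the 3 genotypes overlapped. Its mean was 1569 ± 366 CPM (SD, n = 2) in Ikzf3 +/+ and 1251 ± 116 CPM (SD, n = 2) in Ikzf3 +/N159S, or −0.33 as a log2 fold change (standard error 0.16, FDR = 0.334). This value hung on 1 library, since it was −0.066 without replicate 2 of Ikzf3 +/+ and −0.55 without replicate 1. In Ikzf3 N159S/N159S against Ikzf3 +/+ the log2 fold change was −0.13 (standard error 0.16, FDR = 0.725), and it was 0.13 without that same replicate 2. Chd3 varied more between the libraries of a genotype than 73.7% of tested genes, with a pooled SD of 0.24 on the log2 scale. The median SD was 0.14 over all genes and 0.097 over genes with levels between the lowest and highest member. The SD of Chd3 was larger than that of its genotype means (0.16). It was the 56th gene of 12117 by CPM.

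Chd4 was steadier, at 749.8 and 727 CPM in Ikzf3 +/+, 689.6 and 767 CPM in Ikzf3 +/N159S, and 760.5 and 759 CPM in Ikzf3 N159S/N159S libraries. Both homozygous libraries lay just above both Ikzf3 +/+ libraries, while the heterozygous pair spanned all the others. The log2 fold change was 0.041 (95% interval −0.17 to 0.26, FDR = 0.882) in Ikzf3 N159S/N159S and −0.020 (95% interval −0.24 to 0.20, FDR = 0.950) in Ikzf3 +/N159S against Ikzf3 +/+. Its highest library was 1.11 times its lowest, where that ratio was 1.56 for Chd3.

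Paralogs can exchange reads where their sequences are alike, so the coding sequences were compared, in GENCODE transcripts of mm10. Chd3 and Chd4 were identical at 73.1% of 5608 aligned coding bases, and Hdac1 and Hdac2 at 75.8% of 1443. Among the scaffolds the identity was 68.8% to 74.0%, and between Gatad2a and Gatad2b it was 65.8%. The longest stretches that each pair has in common are given here, 5′ to 3′ on the coding strand and in lower case throughout since every base is shared, to show how short a read would have to be to fit either gene.
Chd3 and Chd4: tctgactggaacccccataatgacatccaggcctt
Hdac1 and Hdac2: ccagataatatgtctga
Mta1 and Mta2: tttgagaactcctccagcaa
Mta1 and Mta3: tcctccagcaacccgtacct
Mta2 and Mta3: agggggaagtgcagcgtg
Gatad2a and Gatad2b: gagtttatctac
The longest was 35 bases, in Chd3 from coding base 3622 to 3656 and in Chd4 from 3415 to 3449, and the shortest 12 bases. No stretch of 50 bases was shared by any 2 members. In their RefSeq-matched transcripts, no exon of a member overlapped an exon of another gene, and the members' other annotated exons were not checked.

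Hdac1 and Hdac2, the deacetylases, lie on chromosome 4 (129516104 to 129542713, minus strand) and chromosome 10 (36974544 to 37001889, plus strand). Hdac1 reads were 181 and 178 CPM in Ikzf3 +/+, 168 and 164 CPM in Ikzf3 +/N159S, and 165 and 158.6 CPM in Ikzf3 N159S/N159S libraries. Both Ikzf3 +/+ libraries stood above all 4 libraries with a variant allele, and the mutant genotypes overlapped each other. The log2 fold change was −0.15 (standard error 0.089, FDR = 0.434) in homozygous and −0.11 (standard error 0.089, FDR = 0.574) in heterozygous T cells. Replicates of Hdac1 were among the closest of all genes, with a pooled SD of 0.028 on the log2 scale. It was larger than that of only 1.38% of all tested genes, which include genes with far fewer reads, and the median at the members' levels was 0.097. The counts of Hdac1 are uncertain for another reason, which is that 58.7% of the 50-base stretches of its transcript also occur in processed pseudogenes, mostly in Gm10093 on chromosome 17 (56.4%). None of these pseudogenes was among the counted genes. The other 9 members shared none of their 50-base stretches with another gene, except Mta3 with 0.343%.

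Hdac2 had 109 and 95.9 CPM in Ikzf3 +/+, 97.1 and 109 CPM in Ikzf3 +/N159S, and 94.4 and 101 CPM in Ikzf3 N159S/N159S libraries. All 3 genotypes overlapped. Its log2 fold change was −0.066 (95% interval −0.30 to 0.17, FDR = 0.816) in Ikzf3 N159S/N159S and 0.0092 (95% interval −0.22 to 0.24, FDR = 0.978) in Ikzf3 +/N159S against Ikzf3 +/+, the latter with a sign that changed when DESeq2's scaling was used.

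The scaffold Mta2, on chromosome 19 (8941875 to 8952303, plus strand), was the most abundant of the Mta genes. Its libraries were at 339 and 331 CPM in Ikzf3 +/+, 295 and 302 CPM in Ikzf3 +/N159S, and 327 and 318 CPM in Ikzf3 N159S/N159S. The heterozygous pair was the lowest, the Ikzf3 +/+ pair the highest, and no genotype overlapped another. The mean was 335 ± 5.38 CPM (SD, n = 2) in Ikzf3 +/+ and 298 ± 4.51 CPM (SD, n = 2) in Ikzf3 +/N159S, or −0.17 as a log2 fold change (standard error 0.089, FDR = 0.391). Between the mutant genotypes it was 0.11 (standard error 0.089, FDR = 0.681). The libraries of a genotype differed less in Mta2 than in nearly any other gene, with a pooled SD of 0.024 on the log2 scale that was larger than that of 0.834% of genes; the standard error above rests on the spread shared across genes, not on this SD alone.

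Mta1, on chromosome 12 (113098278 to 113137206, plus strand), had 127 and 136 CPM in Ikzf3 +/+, 139 and 126 CPM in Ikzf3 +/N159S, and 141 and 139.9 CPM in Ikzf3 N159S/N159S libraries. Both homozygous libraries were above all others, by less than 1 CPM over the nearest heterozygous library. Its log2 fold change of 0.097 (95% interval −0.11 to 0.31, FDR = 0.668) in Ikzf3 N159S/N159S against Ikzf3 +/+ was the highest of the members. Mta3, on chromosome 17 (83706163 to 83821516, plus strand), had the fewest reads, at 85.5 and 85.3 CPM in Ikzf3 +/+, 90.004 and 79.3 CPM in Ikzf3 +/N159S, and 83.8 and 77.1 CPM in Ikzf3 N159S/N159S libraries. The homozygous pair lay below the Ikzf3 +/+ pair and the heterozygous pair on either side of it, with a log2 fold change of −0.085 (95% interval −0.31 to 0.14, FDR = 0.739) in Ikzf3 N159S/N159S against Ikzf3 +/+.

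Mbd3, the member of the methyl-CpG binding domain family that does not itself recognise methylated DNA in mammals, lies on chromosome 10 (80392539 to 80399550, minus strand). It had 98.3 and 108 CPM in Ikzf3 +/+, 110.5 and 101.5 CPM in Ikzf3 +/N159S, and 119 and 98.7 CPM in Ikzf3 N159S/N159S libraries. The genotypes overlapped, and the homozygous pair alone spanned most of the range. Against Ikzf3 +/+, the log2 fold change in homozygous cells was 0.074 (95% interval −0.18 to 0.32, FDR = 0.802).

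Gatad2b, one of the bridging subunits, came nearest to the threshold. The gene lies on chromosome 3 (90293178 to 90363407, plus strand), and its libraries were at 169 and 162 CPM in Ikzf3 +/+, 130.25 and 139.6 CPM in Ikzf3 +/N159S, and 141 and 156 CPM in Ikzf3 N159S/N159S. Both heterozygous libraries were lower than the other 4, both Ikzf3 +/+ libraries higher than the other 4, and no genotype overlapped another. The mean was 165 ± 5.14 CPM (SD, n = 2) in Ikzf3 +/+, 135 ± 6.62 CPM (SD, n = 2) in Ikzf3 +/N159S and 149 ± 10.5 CPM (SD, n = 2) in Ikzf3 N159S/N159S. In heterozygous against Ikzf3 +/+ cells the log2 fold change was −0.29 (95% interval −0.50 to −0.081, FDR = 0.162), so that its interval leaves out 0 while the FDR missed the threshold. Leaving out any 1 library kept it between −0.34 and −0.25. Against the midpoint of the other genotypes the log2 difference was −0.22 (FDR = 0.356), and in Ikzf3 N159S/N159S against Ikzf3 +/+ the log2 fold change was −0.15 (standard error 0.097, FDR = 0.454).

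Gatad2a, on chromosome 8 (69907076 to 69996384, minus strand), was at 127 and 117 CPM in Ikzf3 +/+, 103 and 112 CPM in Ikzf3 +/N159S, and 113 and 129.8 CPM in Ikzf3 N159S/N159S libraries. Its heterozygous pair was the lowest as well, while the Ikzf3 +/+ and homozygous pairs overlapped. The log2 fold change was −0.18 (standard error 0.10, FDR = 0.438) in Ikzf3 +/N159S and −0.0041 (95% interval −0.23 to 0.23, FDR = 0.989) in Ikzf3 N159S/N159S against Ikzf3 +/+.

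Counted over the members, pairs of genotypes without overlap were about as frequent as among all tested genes. Groups that did not overlap were found in 6 of 10 members in Ikzf3 N159S/N159S against Ikzf3 +/+, where 48.3% of all tested genes did not overlap. Of these, 2 were higher and 4 lower, beside 24.3% and 23.9% of genes. In Ikzf3 +/N159S against Ikzf3 +/+ 4 of 10 did not overlap, beside 47.1% of genes, and these were 4 lower and 0 higher, beside 22.1% and 25% of genes. In Ikzf3 N159S/N159S against Ikzf3 +/N159S 4 of 10 did not overlap, beside 41.1% of genes, and these were 4 higher and 0 lower, beside 19.5% and 21.6% of genes. The latter comparisons share the heterozygous libraries. For 1 gene taken alone, 2 libraries on each side allow an exact two-sided permutation p of 0.333 at the smallest.

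Per length of transcript, the members differed by several fold. On the scale of RPKM (CPM divided by the length, in kilobases, of the exons of RefSeq-matched transcripts), the mean over the 6 libraries was 195 for Chd3, 111 for Chd4, 102 for Mta2, 82.9 for Hdac1, 78.5 for Gatad2b, 63.8 for Mbd3, 50.4 for Hdac2, 47.5 for Mta1, 29.3 for Gatad2a and 27.3 for Mta3. The ranges over libraries overlapped between Chd4 and Mta2, Hdac1 and Gatad2b, Gatad2b and Mbd3, Hdac2 and Mta1, and Gatad2a and Mta3. Within each of the 6 libraries, Chd4 was still above Mta2, and Gatad2b above Mbd3 by these exons. The order of the other pairs changed from library to library, so those neighbours are not told apart. All members were above the median gene, at 10.1 RPKM, and Mta3 was above 76.5% and Chd3 above 97.9% of 11883 genes with a length. The level of Gatad2b depends on which exons are taken, since its RefSeq-matched exons cover 1906 bases and all annotated exons 11443 bases. With all annotated exons it had 13.1 RPKM and the lowest level of the members.

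**Figure D3:**
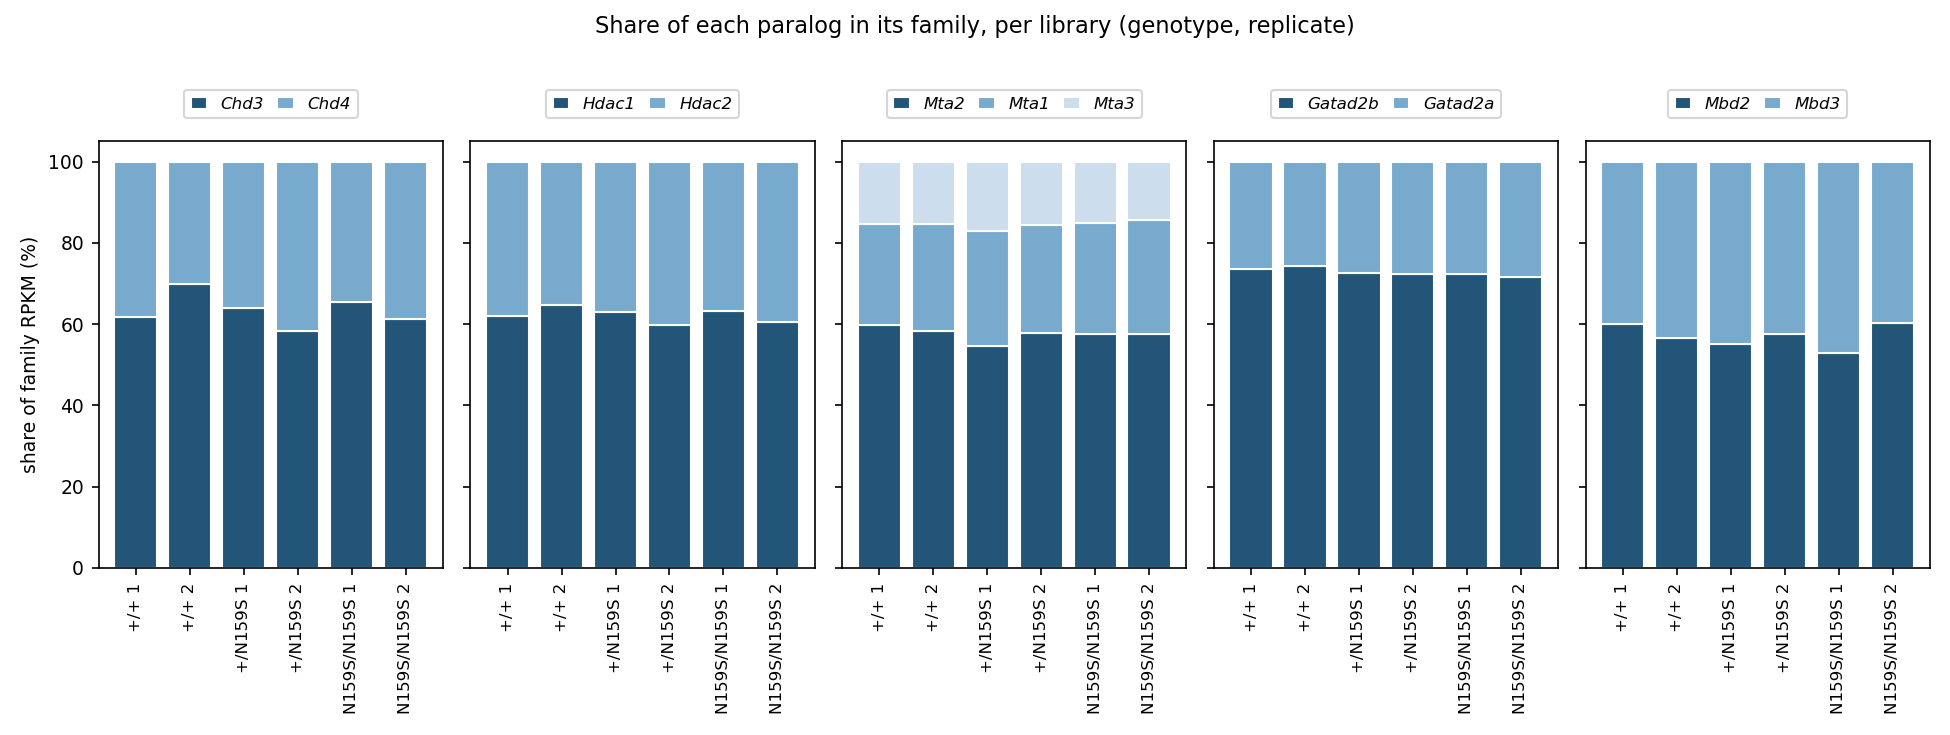
Share of each paralog in the summed RPKM of its family (y axis, percent), with 1 bar per library, labelled by genotype and replicate. Chd3, Hdac1, Mta2, Gatad2b and Mbd2 hold the larger share of their family in all 6 libraries with the exons of RefSeq-matched transcripts (for Gatad2b not with all annotated exons), and the share of Chd3 spans 58.4 to 69.9%.

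The balance of paralogs describes how the RNA of each family was divided among its genes, not the proteins in the complex. No test was made of these shares. Chd3 made up 65.8 ± 5.78% (SD, n = 2) of the Chd3 and Chd4 RPKM in Ikzf3 +/+, 61.2 ± 3.99% in heterozygous and 63.3 ± 3.05% in homozygous libraries, and the genotypes overlapped. Hdac1 made up 63.3 ± 1.85%, 61.3 ± 2.26% and 62.0 ± 1.85% of the deacetylase RPKM in the same order, with overlap. This share carries the uncertainty of the Hdac1 counts from its pseudogenes, as given above. Within the Mta family the shares of Mta2 and Mta1 in Ikzf3 +/+ libraries did not overlap those in either mutant genotype. Mta2 held 59.0 ± 1.12%, 56.1 ± 2.30% and 57.6 ± 0.12%, a lower share in both mutant genotypes than in Ikzf3 +/+, although the heterozygous libraries spanned the homozygous ones. Mta1 held 25.6 ± 1.18%, 27.55 ± 1.26% and 27.7 ± 0.45%, a higher share in both mutant genotypes, and Mta3 held the rest. Gatad2a made up 26.0 ± 0.50%, 27.6 ± 0.14% and 28.0 ± 0.56% of the Gatad2 RPKM, with both Ikzf3 +/+ libraries below the other 4. How often shares separate in this way in other gene families was not counted. By CPM, 48.3% of all tested genes had no overlap in homozygous and 47.1% in heterozygous against Ikzf3 +/+ libraries. Shares of a family add up to the whole, so those of Mta2 and Mta1 are not separate observations. By all annotated exons Gatad2a held 60.1 to 62.5% instead, so that the larger paralog of this family is not settled by these counts. Mbd3 made up 41.7 ± 2.46%, 43.6 ± 1.68% and 43.4 ± 5.22% of the RPKM that it has with Mbd2, again with overlap.

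The 2 libraries of a genotype differed in the members along the split by the number of genes detected. Chd3, Mta1 and Mbd3 were lower in the library with more genes detected in all 3 genotypes, and Hdac2, Gatad2a and Gatad2b were higher there in all 3. These are 6 of 10 members, where 42.2% of all tested genes went the same way in all 3 genotypes, 20.4% lower and 21.8% higher. In Chd3 the log2 difference was −0.48, −0.19 and −0.27 from no to 2 variant alleles, each larger in size than its fold change between homozygous and Ikzf3 +/+ cells. Only the first was larger in size than its log2 fold change of −0.33 between heterozygous and Ikzf3 +/+ cells. In Gatad2b the log2 difference along the split was 0.063, 0.10 and 0.14, and in Mbd3 −0.14, −0.12 and −0.27. Transcripts rich in G and C tended to be lower in the libraries with more genes detected, with a Spearman rho of −0.31 across 11883 genes, which is a description across genes that share these libraries. Mbd3 has the most G and C among the members (62.9%) and Hdac2 the least (44.4%), but Gatad2a (56.8%) was higher on that side, and the part of base composition in the split was not tested.

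**Figure D4:**
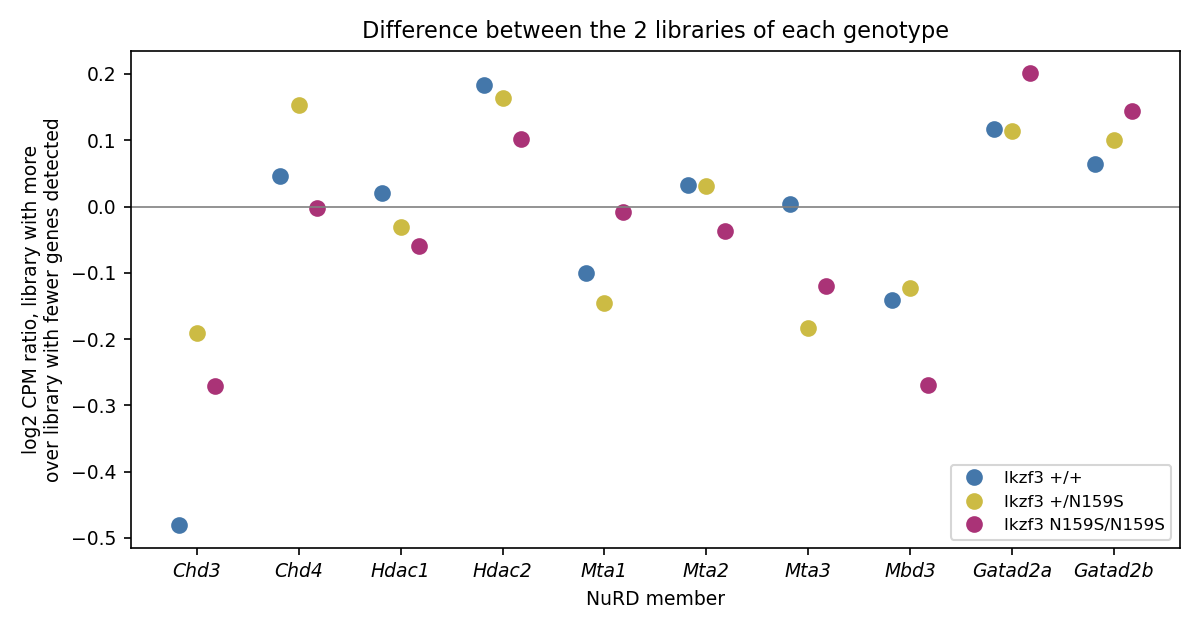
Log2 ratio of CPM between the 2 libraries of each genotype, the library with more over the library with fewer genes detected (y axis), for the 10 members (x axis), with 1 point per genotype. Chd3, Mta1 and Mbd3 lie below 0 and Hdac2, Gatad2a and Gatad2b above 0 in all 3 genotypes.

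With this split as a term in the fit, an alternative chosen after the data were seen, 2 members were called. The split was drawn from the tested counts themselves and is not given by the labels, so these calls are no independent support. In Ikzf3 +/N159S against Ikzf3 +/+ Gatad2b was called at −0.29 on the log2 scale (standard error 0.072, FDR = 0.01003) and Chd3 at −0.31 (standard error 0.081, FDR = 0.0134), where this fit called 11.7% of all genes. Both were also below the midpoint of the other genotypes, by a log2 difference of −0.22 for Gatad2b (FDR = 0.0429) and −0.25 for Chd3 (FDR = 0.0355), where 6.07% of all genes were called. The fold changes were close to those without the term, and the standard errors were smaller. In Ikzf3 N159S/N159S against Ikzf3 +/+ and against Ikzf3 +/N159S the fit with the split called 0 members, beside 14.5% and 7.24% of all genes, with Gatad2b alone at an unadjusted p under 0.05 in the former (FDR = 0.172) and Chd3 and Gatad2a in the latter (FDR = 0.184 and 0.196). In both heterozygous libraries 13 of the 14 B cell markers were at their highest, with Fcer2a as the exception, and their part in these calls was not tested.

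Subunits outside the 10 members were not called either, though Chd5 had a larger fold change than any member. The 5 examined were Mbd2, which binds methylated DNA, the histone chaperones Rbbp4 and Rbbp7, the small subunit Cdk2ap1 and Chd5, a motor known mainly from the nervous system. Of these, 0 were called in the 4 comparisons, beside 5.26%, 1.75%, 1.66% and 1.03% of all tested genes. Mbd2 had a log2 fold change of −0.024 (FDR = 0.942), Rbbp4 of −0.16 (FDR = 0.641), Rbbp7 of 0.15 (FDR = 0.551) and Cdk2ap1 of 0.11 (FDR = 0.767) in Ikzf3 N159S/N159S against Ikzf3 +/+. Chd5 was scarce, at 6.10 and 5.85 CPM in Ikzf3 +/+, 5.67 and 3.93 CPM in Ikzf3 +/N159S, and 2.79 and 3.08 CPM in Ikzf3 N159S/N159S libraries. Its levels fell stepwise with the number of variant alleles without overlap between genotypes, which no member did. Among all tested genes, 7.75% stepped in either direction. The homozygous libraries were the lowest of the 6, with a log2 fold change of −1.03 against Ikzf3 +/+ and a standard error of 0.28, which missed the threshold (FDR = 0.0562).

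Among the Ikaros proteins that bind NuRD, Ikzf1 had 1066 and 985 CPM in Ikzf3 +/+, 822 and 801 CPM in Ikzf3 +/N159S, and 793 and 845 CPM in Ikzf3 N159S/N159S libraries. Both Ikzf3 +/+ libraries were above the other 4, and the log2 fold changes of −0.34 in heterozygous (FDR = 0.124) and −0.32 in homozygous cells (FDR = 0.0957) missed the threshold. Ikzf3 itself rose in Ikzf3 N159S/N159S against Ikzf3 +/+ cells, by a log2 fold change of 0.36 (FDR = 0.0490), and Ikzf2, which encodes Helios, in Ikzf3 +/N159S against Ikzf3 +/+ cells, by 0.83 (FDR = 0.0231). Ikzf4 and Ikzf5 were not called, with log2 fold changes of 0.38 (FDR = 0.366) and −0.14 (FDR = 0.560) in homozygous cells. Markers of effector and regulatory T cells, where Helios is also made, summed to 209 to 220.5 CPM in the Ikzf3 +/+, 236 to 239 CPM in the heterozygous and 172 to 181 CPM in the homozygous libraries. Foxp3, which defines regulatory T cells, had 6.87 and 11.2 CPM in Ikzf3 +/+, 30.2 and 16.7 CPM in Ikzf3 +/N159S, and 10.9 and 5.71 CPM in Ikzf3 N159S/N159S libraries. Both heterozygous libraries were the highest, with a log2 fold change of 1.35 against Ikzf3 +/+ (FDR = 0.0653) and a log2 difference of 1.41 from the midpoint (FDR = 0.0324). Il2ra, the receptor chain CD25, differed from the midpoint by 1.06 on the log2 scale (FDR = 0.0180) and from Ikzf3 +/+ by 0.61 (FDR = 0.162). Of the 10 tested genes of this list, 7 were higher and 3 lower in Ikzf3 +/N159S against Ikzf3 +/+, with 0 called (1.75% of all genes). Against the midpoint 9 were higher and 1 lower, with 3 called (1.03% of all genes). The third, beside Foxp3 and Il2ra, was Cxcr5 at a log2 difference of 1.63 (FDR = 0.0251). The part of effector and regulatory T cells in the rise of Ikzf2 was not tested.

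The wider chromatin machinery was read in the same way. Of 103 tested genes in 8 lists of NuRD subunits outside the members, NuRD binding proteins, other deacetylases, SIN3, CoREST, CtBP and NCoR, SWI/SNF, other ATP-dependent remodelers and PRC2, 0 were called by edgeR in Ikzf3 N159S/N159S against Ikzf3 +/+, beside 5.26% of all tested genes, with 20 at an unadjusted p under 0.05, beside 18.3% of all tested genes. In the other 3 comparisons the 1 gene called, 0.971% of the 103, beside 1.75%, 1.66% and 1.03% of all tested genes, was Bcl11a, a zinc finger protein that binds NuRD and is made in B cells. Bcl11a had 2.92 and 4.10 CPM in Ikzf3 +/+, 7.495 and 11.3 CPM in Ikzf3 +/N159S, and 2.85 and 2.49 CPM in Ikzf3 N159S/N159S libraries. Only the heterozygous pair stood out, with a log2 fold change of 1.38 against Ikzf3 +/+ (FDR = 0.0324). The B cell marker Cd74 had 67.7 and 98.6 CPM in Ikzf3 +/+ and 190.5 and 325.5 CPM in Ikzf3 +/N159S libraries. Of 14 B cell markers, 13 had a log2 fold change above 0 in this comparison and 1, Fcer2a, was below 0 (−2.77). The part of B cells in the values of Bcl11a was not tested. The 13 tested genes of other remodelers, which include CHD and ISWI motors and others such as Ino80 and Atrx, all had fold changes below 0 in Ikzf3 N159S/N159S against Ikzf3 +/+, with a median log2 fold change of −0.16 (0.0004 over all genes) and 0 called.

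Ikaros proteins recognise DNA with the core TGGGAA, which was looked for on both strands in the RefSeq promoter windows of GRCm38.p6, each from 250 bases before to 50 bases after a start site. Windows were at hand for 7 of 10 members, Chd4, Hdac2, Mta1, Mta2, Mbd3, Gatad2a and Gatad2b, with 10 windows in all. The core was found in 1 of these windows, of Gatad2a, where 25.6% of 32851 windows of all genes hold it. Gatad2a has a window around its annotated start (chr8:69996335-69996634), which lacks the core, and another inside the gene (chr8:69974334-69974633), which holds it. The match starts 149 bases before the start site of the latter window. With its flanks it spans chr8:69974516-69974543 on the minus strand, shown with the core in capitals.
Gatad2a: agcagcccaagTGGGAAacccagtcgct
A match is a description of these letters, and no match says only that they are not in these windows.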

How the data were processed

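RNA-seq of splenic T cells was examined in 6 libraries, 2 per Ikzf3 genotype, grouped by the genotype in the labels. The authors selected poly(A) RNA, trimmed reads with Trimmomatic 0.38.1, mapped them to mm10 with HISAT2 2.2.1 and assigned them to refGene genes with HTSeq 2.0.2 (versions per the submitters' processing notes), and deposited raw counts per gene. Whether strand was used in counting, and the read length, are not given in the sources used here. The 5 rows of uncounted reads were left out, and reads on genes made up 50.7 to 57.7% of each library.

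Counts were scaled by TMM and tested with edgeR 4.0.16 (R 4.3.3) in one quasi-likelihood fit with a coefficient per genotype, after filterByExpr (minimum count 10, total 15), with Benjamini-Hochberg adjustment over 12117 genes and an FDR under 0.05 taken as called. The script was tested on simulated counts. Exon lengths, overlaps and transcripts came from GENCODE. The members and the 16 lists of other genes were chosen with earlier results of these data known. Named were all members, the other NuRD subunits, the Ikaros family and up to 5 called genes per other list. Of these, Cd74 and Fcer2a were named for B cells, and Foxp3, Il2ra and Cxcr5 for effector and regulatory T cells. Over the 4 comparisons, in the order homozygous against +/+, heterozygous against +/+, homozygous against heterozygous, and heterozygous against the midpoint, calls numbered 4, 9 (8 higher and 1 lower), 13 and 13 of 14 B cell genes, 2, 2, 1 and 0 of 10 naive CD4 T cell genes, 1, 0, 4 and 3 of 10 effector and regulatory T cell genes, 2, 0, 2 and 0 of 6 CD8 and NK cell genes, 0, 0, 2 and 0 of 9 myeloid genes, 0 of 2 erythroid genes and 0 of 13 cell cycle genes. Over all tested genes the shares called, in the same order, were 5.26%, 1.75%, 1.66% and 1.03%. Alternatives were DESeq2 1.42.0, its size factors, other filters, edgeR's earlier quasi-likelihood, likelihood ratio and exact tests, fits of 2 genotypes, a replicate block, an FDR under 0.01 and each library left out. B cell libraries were not analysed here.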

Additional observations from a re-analysis of the deposited data

How the results depend on the processing

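The count of 0 members called in each comparison was kept under every alternative listed above and with any 1 library left out. Only the term for the split of libraries by genes detected, added after the data were seen, gave 2 calls in heterozygous against +/+ and 2 against the midpoint. Over all genes the counts called in homozygous against +/+, heterozygous against +/+, homozygous against heterozygous and heterozygous against the midpoint were 637, 212, 201 and 125. They were 1042, 640, 473 and 356 with the likelihood ratio test, 992, 607 and 451 with the exact test (not run for the midpoint), 1757, 1422, 877 and 736 with the split term, and 257, 41, 54 and 33 at an FDR under 0.01. DESeq2 called 341 in heterozygous against +/+ and 194 against the midpoint, and no filter 542, 485 and 338 in the last 3 comparisons. Leaving out 1 library gave 221 to 750, 68 to 249, 62 to 203 and 65 to 117. With the replicate number as a block the counts were 514, 170, 168 and 120, with 0 members called. Deviations of same-numbered libraries correlated at −0.17 between +/+ and heterozygous and −0.22 between +/+ and homozygous libraries. Between the mutant genotypes the correlation was 0.24. These values do not settle whether the numbers pair the samples. The split term equals a block with the +/+ numbers swapped.

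Of 620 member values under alternatives, 579 kept their sign and side of the threshold, 37 changed sign and 4 passed it, and the cause was not tested. Gatad2a in homozygous against +/+ was 0.0089 without a filter, Hdac2 in heterozygous against +/+ −0.0022 with DESeq2 and −0.0018 with its size factors, and Mbd3 against the midpoint 0.0026 with at least 10 reads in every library and 0.00040 with the split term. With 1 library left out, log2 fold changes in homozygous against +/+ were −0.35 to 0.13 for Chd3, −0.15 to 0.027 for Hdac2, −0.069 to 0.21 for Mbd3 and −0.096 to 0.093 for Gatad2a. In heterozygous against +/+ they were −0.095 to 0.052 for Chd4, −0.064 to 0.088 for Mta1, −0.11 to 0.078 for Mta3, −0.080 to 0.10 for Hdac2 and −0.034 to 0.11 for Mbd3. In homozygous against heterozygous they were −0.010 to 0.14 for Chd4, −0.16 to 0.027 for Mta3, −0.064 to 0.015 for Hdac1, −0.15 to 0.0085 for Hdac2 and −0.10 to 0.19 for Mbd3. Against the midpoint they were −0.12 to 0.031 for Chd4, −0.11 to 0.038 for Mta1, −0.068 to 0.12 for Mta3, −0.040 to 0.12 for Hdac2 and −0.080 to 0.069 for Mbd3. Where 1 library was left in a genotype, it was taken to vary like the others. With 2 libraries per genotype, standard errors of the members were 0.089 to 0.16 between genotypes, which limits the changes that could be called.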
